A study of Homo sapiens with 16 samples.

Results

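7 genes for transcription factors that are made in unstressed cells, ATF6, ATF2, CREB1, NFE2L2 (the gene for NRF2), USF1, ARNT and NFYC, were followed through an hour of ER stress in HEK293T cells. They were chosen by gene symbol. By the rule of choice, each is represented by the UCSC transcript of its gene with the most mRNA reads among the counts published with the study. This choice was not recomputed from the deposited counts. All 7 passed the filter on low counts in Ribo-Seq, where 12242 transcripts were tested. For 5 of them (ATF2, CREB1, NFE2L2, ARNT and NFYC) a transcript with the same identifier and counted length was measured by mRNA-Seq, and these belong to the 10970 transcripts tested in both assays. ATF6 and USF1 were followed in Ribo-Seq alone, since no mRNA count of the same length could be joined to them.

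These proteins are present before a stress arrives, and most are switched on by a change to the protein that already exists. ATF6 is a membrane protein of the ER that is cut in the Golgi when unfolded proteins accumulate, and its released part enters the nucleus. ATF2 and CREB1 are bZIP proteins activated by phosphorylation, and NRF2 is a bZIP protein that escapes constant degradation when electrophiles or oxidants are present. USF1 and ARNT bind DNA through a basic helix-loop-helix, ARNT as the shared dimer partner of the hypoxia-inducible factors and the dioxin receptor, and NFYC is a subunit of NF-Y, which binds CCAAT boxes and assists ATF6 at ER stress elements. ATF4, in contrast, is made on demand: phosphorylation of eIF2α slows most initiation, yet lets ribosomes pass the short upstream ORFs (uORFs) of its mRNA. It is given here as a scale.

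HEK293T cells descend from human embryonic kidney and carry the large T antigen of SV40. Cells were left untreated, or received for 1 hr 1 µg/ml tunicamycin (Tm), which blocks N-linked glycosylation in the ER, Tm together with 200 nM ISRIB, a small molecule that counters the effect of phosphorylated eIF2α, or 200 nM ISRIB alone. There are 2 biological replicates, a and b, for each of the 4 treatments. Part of every lysate went to Ribo-Seq, which counts ribosome-protected fragments (RPFs), and part to mRNA-Seq. The 8 Ribo-Seq libraries held 3001612 to 11469150 counts and the 8 mRNA-Seq libraries 8466193 to 24499266 on joined transcripts, and the chi-square per degree of freedom between replicates, 1 for counting noise alone, was 1.63 to 12.05. Levels are CPM, that is counts divided by the TMM-scaled library total, so they are shares of a library. Fewer cells, less RNA per cell or a general fall in translation cannot be told from an unchanged amount. The 12 marker genes listed to check the cell line have no symbol in the tables used and were not analysed here.

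The mRNAs differ ahead of and around the start codon, where scanning ribosomes begin translation. The 15 bases around the annotated start codon of each gene are shown first, since this is where translation of the annotated protein begins, with the start codon in capitals and 9 bases before it. They were read from GENCODE v29 transcripts whose coding sequence is 20 codons longer than the counted length. The transcripts lie, in GRCh38, at chr1:161766294-161964070 (plus strand) for ATF6, chr2:175072250-175168206 (minus) for ATF2, chr2:207529892-207603431 (plus) for CREB1 and chr2:177230305-177265131 (minus) for NFE2L2. Those of USF1, ARNT and NFYC lie at chr1:161039251-161045977 (minus), chr1:150809705-150876768 (minus) and chr1:40691709-40771603 (plus).
ATF6: acttgtgaaATGggg
ATF2: attcaacttATGaaa
CREB1: ggtaactaaATGacc
NFE2L2: cagctcatcATGatg
USF1: cacagagagATGaag
ARNT: tctgcggccATGgcg
NFYC: gttgtcgagATGtcc

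A purine 3 bases before the start codon, the strongest part of the favoured context, was present in 5 of 7, against 84.8% of 1774 tested transcripts matched to the annotation. ATF2 and CREB1 lack it. A purine there with a G directly after the start codon was found in ATF6 and ARNT, 2 of 7 against 45.8%.

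Upstream AUGs were found in the annotated 5′ UTRs of 3 of 7 genes, ATF2, USF1 and ARNT, against 50.6% of the matched transcripts. ATF2 holds 5 in a 5′ UTR of 299 bases, and all 5 open a uORF that ends before the coding sequence. USF1 holds 4 in 205 bases, of which 1 ends before the coding sequence, and ARNT holds 1 in 201 bases that runs into the coding sequence out of frame. ATF6 (67 bases), CREB1 (251 bases), NFE2L2 (555 bases) and NFYC (167 bases) hold none. NFYC has 4 annotated transcripts with this coding length, and their 5′ UTRs hold 0 to 9 upstream AUGs, while the 2 of USF1 hold 1 to 4, so the count depends on the transcript chosen for these. The uORFs of at most 30 bases that end before the coding sequence are shown from their AUG to their stop codon. The AUG is in capitals as ATG. They are shown because uORFs are the elements through which translation of ATF4 mRNA responds to eIF2α. Those of USF1 that open 169, 155 and 20 bases before the coding sequence run into it and are not shown. The last of these is 24 bases long. The number in each name is the distance in bases from the AUG to the coding sequence.
ATF2 uORF at 163: ATGaactag
ATF2 uORF at 134: ATGgaaacttga
ATF2 uORF at 33: ATGagaaaaagaatgtga
ATF2 uORF at 21: ATGtga
USF1 uORF at 192: ATGgccgcgggctggaagtgcgcatga
The remaining uORF of ATF2 opens 63 bases before the coding sequence and is 48 bases long. The last pair of ATF2 lie within it, in its frame, and end at the same stop codon.

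At rest the factors were expressed at moderate to high levels and over a wide range. RPFs per 1000 codons in untreated cells ranked between percentile 45.0 (ATF2) and 84.6 (NFYC) of all tested transcripts. Over all 8 lysates the order of RPF levels per 1000 codons was NFYC (314.7 CPM), ATF6 (169.2), NFE2L2 (136.6), CREB1 (107.7), USF1 (102.6), ARNT (64.2) and ATF2 (41.4), as geometric means. Each gene was higher than its next neighbour in 8 of 8 lysates, by 1.24- to 1.86-fold, except CREB1 and USF1, which differed by 1.05-fold and whose order held in 5 of 8. An exact two-sided sign-flip permutation test gave p = 0.0078, the smallest that 8 lysates allow (adjusted p = 0.011 over 14 neighbour pairs), for each pair but CREB1 and USF1 (p = 0.35, adjusted p = 0.38). The 8 lysates span all 4 treatments, and neighbours were set by sorting these same values. The p here and below thus describes how steady an order was across libraries and does not test a difference in untreated cells.

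The order of mRNA levels was different. ATF2, lowest in RPFs, had the highest mRNA level per 1000 codons (129.7 CPM), followed by NFYC (121.3), NFE2L2 (93.7), CREB1 (92.6) and ARNT (74.7). ATF2 and NFYC did not differ beyond their spread (1.07-fold, higher in 7 of 8, exact permutation p = 0.07, adjusted p = 0.082), nor did NFE2L2 and CREB1 (1.01-fold, higher in 3 of 8, p = 0.76, adjusted p = 0.76). NFYC exceeded NFE2L2 by 1.29-fold and CREB1 exceeded ARNT by 1.24-fold, each in 8 of 8 lysates (exact permutation p = 0.0078, adjusted p = 0.011). In the untreated lysates alone NFYC exceeded NFE2L2 by 0.19 on the log2 scale, and NFE2L2 exceeded CREB1 by 0.23, with both NFE2L2 values (103.7 and 96.9 CPM per 1000 codons) above both CREB1 values (83.7 and 87.7).

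Translational efficiency, the ratio of RPF to mRNA CPM of the same lysate, therefore separated the 5 joined genes. NFYC stood at 2.59 over the 8 lysates, NFE2L2 at 1.46, CREB1 at 1.16, ARNT at 0.860 and ATF2 at 0.320. Every neighbouring pair passed the exact permutation test, with ratios of 1.25 (NFE2L2 over CREB1, 7 of 8 lysates, p = 0.016, adjusted p = 0.02) to 2.69 (ARNT over ATF2, 8 of 8, p = 0.0078, adjusted p = 0.011). In untreated lysates alone NFE2L2 and CREB1 differed by 0.05 on the log2 scale, against 0.33 over all lysates.

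**Figure D1:**
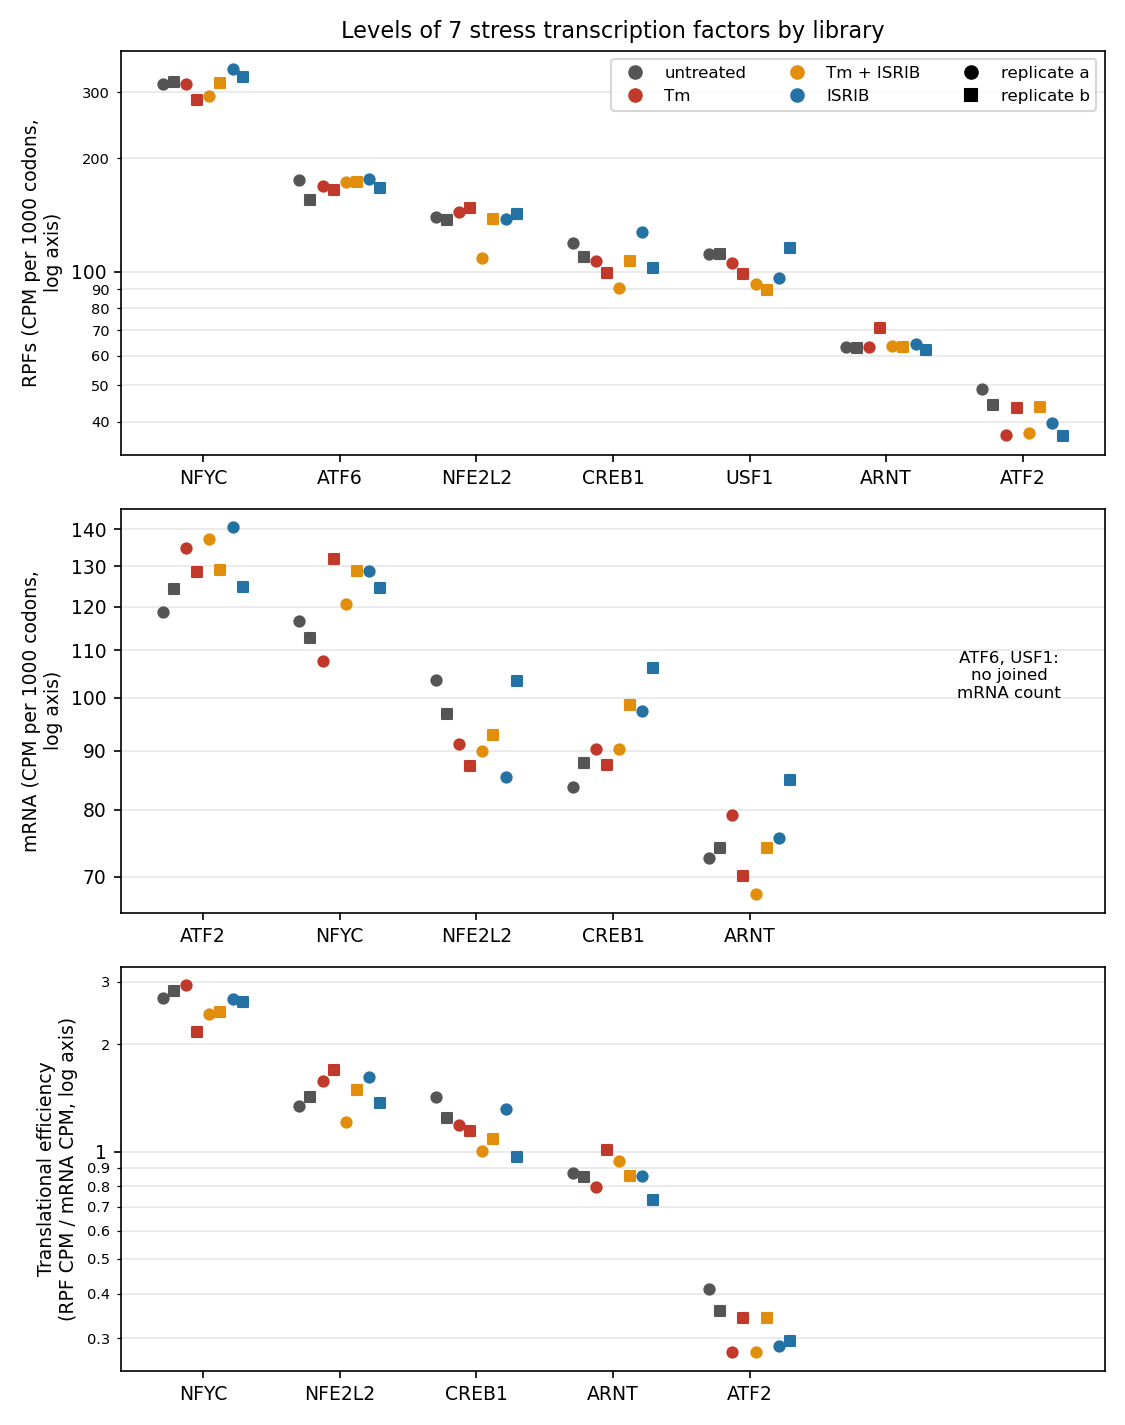
RPF and mRNA levels (CPM per 1000 codons, log axes) and translational efficiency (ratio, log axis) of each gene in each library, coloured by treatment, with circles for replicate a and squares for replicate b and genes ordered by their mean over 8 lysates. ATF2 is lowest in RPFs and in efficiency and highest in mRNA, and CREB1 and USF1 overlap in RPFs.

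Against all 10970 tested transcripts, whose efficiency in untreated cells had a median of 1.02 and quartiles of 0.612 and 1.74, NFYC (2.76) lay at percentile 88.3 and ATF2 (0.384) at percentile 11.1. NFE2L2 (1.38), CREB1 (1.33) and ARNT (0.859) lay at percentiles 65.0, 63.2 and 40.7. ATF4, held back at rest, lay at percentile 0.757 with 0.0904. Among matched transcripts, the median efficiency was 0.765 for the 897 with an upstream AUG and 1.0 for the 877 without one.

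**Figure D2:**
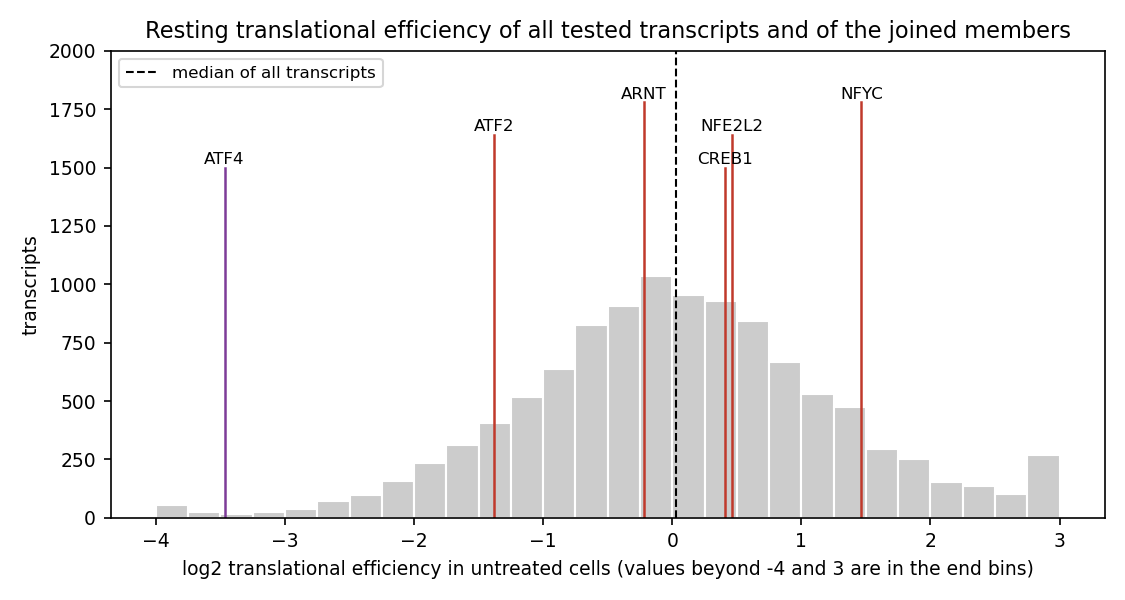
Histogram of log2 translational efficiency in untreated cells (mean of 2 lysates) for 10970 transcripts, with lines at the 5 joined genes and at ATF4 and a dashed line at the median. ATF2, at 0.384, lies left of the median and NFYC, at 2.76, right of it.

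The first comparison asks whether an hour of Tm changed the share of RPFs that lay on these mRNAs. None of the 7 passed an FDR of 0.1 for RPFs (adjusted by Benjamini-Hochberg, quasi-likelihood test in edgeR), where 13.5% of the joined transcripts and 12.9% of those tested in Ribo-Seq alone passed. DESeq2 also called 0 of 7, beside 744 of 10970 joined transcripts and 796 of 12242 in Ribo-Seq alone. An unadjusted p under 0.05 was found for 0 of 7, beside 2589 and 2802 of these transcripts. 3 log2 fold changes were above 0 and 4 below, from -0.22 (ATF2) to 0.08 (ARNT) with a median of -0.07, beside -0.01 over all joined transcripts. The 95% confidence intervals of all 7 lay between 0.686- and 1.235-fold. ATF4 went from 81.7 and 61.6 CPM in untreated cells to 455 and 464 CPM in Tm, 6.46-fold (95% interval 5.61 to 7.45, adjusted p = 2.5e-18), so an increase of that size in any of the 7 lies outside its interval.

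Without a call, the RPF replicates of Tm and untreated cells did not overlap in 5 of 7 genes, against 51.1% of joined transcripts. For mRNA they did not overlap in 2 of 5 joined genes, against 60.5% of transcripts, and for efficiency in 3 of 5, against 56.3%. For RPFs, both Tm replicates were above both untreated ones in NFE2L2 and ARNT and below them in ATF2, CREB1 and USF1. In ARNT the lower Tm replicate (48.61 CPM) was barely above the higher untreated one (48.56 CPM).

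ATF6 held RPF levels of 113.9 and 101.3 CPM in untreated cells, 109.8 and 107.5 in Tm, 112.5 and 112.6 in Tm + ISRIB and 114.7 and 108.7 in ISRIB. The 2 untreated replicates enclosed the Tm pair, and the log2 fold change in Tm was 0.02 (SE 0.09, adjusted p = 0.93). The SD of its log2 RPF CPM over the 8 libraries was 0.059, at percentile 2.38 of all transcripts (median 0.176). This SD also falls with the count, and ATF6 had 329 to 1133 counts per library.

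NFYC, whose protein works with ATF6 on ER stress elements, was at 99.4 and 100.6 CPM of RPFs in untreated cells and 99.8 and 90.5 in Tm. Its mRNA stood at 36.9 and 35.6 CPM in untreated cells and at 34.0 and 41.7 in Tm, where the 2 replicates lay on either side of the untreated pair. The log2 fold changes were -0.07 (SE 0.09) for RPFs, 0.07 (SE 0.10) for mRNA and -0.14 (SE 0.14) for efficiency, with adjusted p of 0.72, 0.71 and 0.56.

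CREB1, the cAMP response element-binding protein, gave 38.4 and 35.2 CPM of RPFs in untreated cells and 34.4 and 32.0 in Tm, so both Tm replicates were lower. The log2 fold change was -0.14 (SE 0.14, adjusted p = 0.59). Its mRNA was at 26.9 and 28.3 CPM untreated and 29.1 and 28.2 in Tm, which overlap, and its efficiency went from 1.43 and 1.25 to 1.19 and 1.14 (log2 fold change -0.19, SE 0.17, adjusted p = 0.52).

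ATF2, the other CREB/ATF member, had the fewest RPF counts, 65 to 241 per library. RPFs stood at 23.8 and 21.5 CPM untreated and at 17.9 and 21.2 in Tm, and mRNA at 57.7 and 60.4 untreated and 65.6 and 62.4 in Tm. RPFs were thus lower and mRNA higher in both Tm replicates. Efficiency stood at 0.413 and 0.357 untreated and 0.275 and 0.343 in Tm, a log2 fold change of -0.34 (SE 0.17, adjusted p = 0.21). The direction of this value is opposite to that of ATF4 (2.56, SE 0.15), and it did not pass the test. The part of the 5 upstream AUGs of ATF2 was not tested. Without Tm replicate a the ATF2 values were -0.087 for RPFs and -0.17 for efficiency, so their size rests on that library.

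NFE2L2 RPFs were at 81.8 and 80.6 CPM untreated and 84.4 and 86.6 in Tm, and its mRNA at 60.8 and 56.8 untreated and 53.5 and 51.1 in Tm. The higher RPFs and lower mRNA gave an efficiency of 1.58 and 1.70 in Tm against 1.35 and 1.42 in untreated cells, with both Tm lysates above both untreated ones. The log2 fold changes, 0.07 (SE 0.10) for RPFs, -0.17 (SE 0.10) for mRNA and 0.24 (SE 0.15) for efficiency, had adjusted p of 0.73, 0.29 and 0.32.

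Of the helix-loop-helix proteins, USF1 was at 32.4 and 32.5 CPM of RPFs in untreated cells and 30.7 and 28.8 in Tm (log2 fold change -0.12, SE 0.13, adjusted p = 0.64). ARNT was at 48.6 and 48.4 CPM of RPFs untreated and 48.6 and 54.6 in Tm (0.08, SE 0.11, adjusted p = 0.72). The mRNA of ARNT, 55.9 and 57.1 CPM untreated and 61.0 and 53.9 in Tm, overlapped between treatments. The SD of the log2 RPF CPM of ARNT over 8 libraries was 0.061, at percentile 2.87. As for ATF6, this SD also falls with the count, and ARNT had 167 to 542 counts per library.

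Across the 5 joined genes none passed the FDR for mRNA, where 11.0% of transcripts did, or for efficiency, where 15.9% did. DESeq2 called 0 of 5 in both, beside 694 of 10970 transcripts for mRNA and 1204 for efficiency. An unadjusted p under 0.05 was found for 0 of 5 in either, beside 2817 and 2833 transcripts. mRNA intervals lay between 0.768- and 1.231-fold and efficiency intervals between 0.621- and 1.466-fold. Their median log2 fold change was 0.05 for mRNA and -0.14 for efficiency, beside -0.003 and -0.005 over all transcripts.

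**Figure D3:**
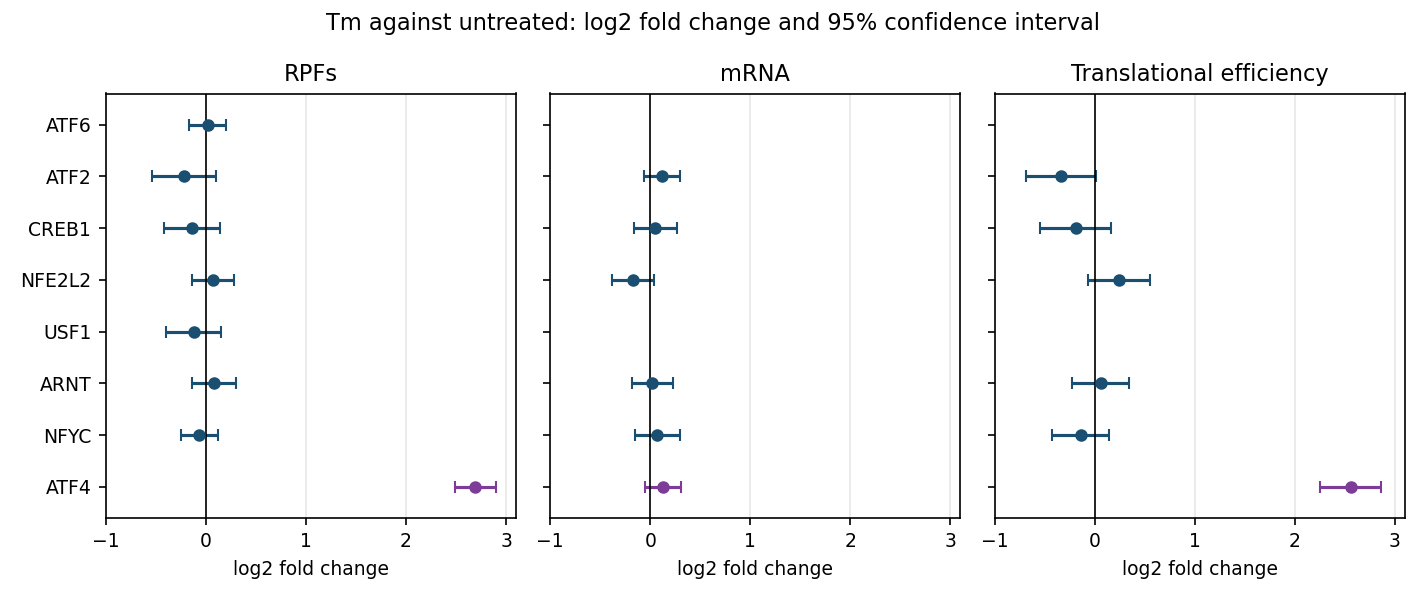
Log2 fold change in Tm against untreated cells (points) with 95% confidence intervals (bars) for RPFs, mRNA and translational efficiency, with ATF4 in purple as a scale. The intervals of the 7 genes cross 0 in each panel that has a value, and ATF4 lies at 2.69 for RPFs and 2.56 for efficiency.

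ISRIB alone asks whether the factors change when the response is blocked in unstressed cells. None of the 7 passed for RPFs (0.0182% of joined transcripts and 0.0245% in Ribo-Seq alone did). DESeq2 called 0 of 7, beside 2 of 10970 joined transcripts and 2 of 12242 in Ribo-Seq alone. At an unadjusted p under 0.05 were 0 of 7, beside 471 and 526 of these transcripts. The lowest value was that of ATF2, with 19.4 and 17.8 CPM in ISRIB, both under the untreated pair (log2 fold change -0.28, SE 0.15, adjusted p = 1). ATF2 mRNA was at 68.3 and 60.7 CPM, above both untreated replicates, and its efficiency was 0.285 and 0.295, below both. The efficiency difference of -0.42 (SE 0.16) had an adjusted p of 0.43. ISRIB and untreated replicates did not overlap for RPFs in 2 of 7 genes, against 31.4% of joined transcripts. For efficiency this held in 2 of 5, against 36.8%. None of 5 passed for efficiency (0.191% of transcripts did). At an unadjusted p under 0.05 was 1 of 5, beside 975 of 10970 transcripts, and DESeq2 called 0, beside 41.

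mRNA levels in ISRIB lay above both untreated replicates in 4 of 5 genes, all but NFE2L2, against 40.7% of transcripts apart in either direction. The largest was CREB1, at 31.3 and 34.2 CPM against 26.9 and 28.3 (log2 fold change 0.25, SE 0.09, adjusted p = 0.27). None of 5 passed the FDR (1.15% of transcripts did). At an unadjusted p under 0.05 was 1 of 5, beside 1584 of 10970 transcripts, and DESeq2 called 0, beside 145. The ISRIB mRNA libraries differed most between replicates, with a chi-square per degree of freedom of 12.05, and the part of this spread in the values was not tested.

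With Tm and ISRIB together, none of the 7 differed from untreated cells in RPFs past the FDR, where 2.65% of joined transcripts and 2.67% in Ribo-Seq alone did. DESeq2 called 0, beside 84 of 10970 joined transcripts and 90 of 12242 in Ribo-Seq alone, and gave no adjusted p for ATF2. At an unadjusted p under 0.05 was 1 of 7, beside 1453 and 1593 of these transcripts. That gene was USF1, with 26.95 and 26.13 CPM, below every untreated and Tm replicate (log2 fold change -0.29, SE 0.12, adjusted p = 0.3). CREB1 RPFs were at 29.2 and 34.5 CPM and its mRNA at 29.1 and 31.8, and its efficiency of 1.01 and 1.09 was below both untreated lysates (-0.35, SE 0.16, adjusted p = 0.21). Replicates of Tm + ISRIB and untreated cells did not overlap for RPFs in 4 of 7 genes, against 41.4% of joined transcripts. For efficiency this held in 3 of 5, against 51.9%. ATF2 efficiency was at 0.274 and 0.341, nearly the Tm values, and differed from untreated cells by -0.32 (SE 0.15, adjusted p = 0.24). None of 5 passed for mRNA (14.2% of transcripts did) or for efficiency (8.96% did). At an unadjusted p under 0.05 were 0 of 5 for mRNA and 2 of 5 for efficiency, beside 2911 and 2296 of 10970 transcripts. DESeq2 called 0 in both, beside 776 and 610.

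Addition of ISRIB to Tm asks what depends on the eIF2α response during stress. ATF4 RPFs were at 53.7 and 66.3 CPM in Tm + ISRIB, a log2 difference from Tm of -2.93 (SE 0.11, adjusted p = 9.9e-19). None of the 7 passed for RPFs, where 17.7% of joined transcripts and 17.4% in Ribo-Seq alone did. DESeq2 called 0, beside 1002 of 10970 joined transcripts and 1092 of 12242 in Ribo-Seq alone. At an unadjusted p under 0.05 was 1 of 7, beside 2890 and 3173 of these transcripts. That gene was NFE2L2, with 63.7 and 81.0 CPM in Tm + ISRIB against 84.4 and 86.6 in Tm (log2 difference -0.24, SE 0.11, adjusted p = 0.15). Replicate a of Tm + ISRIB was the lowest of the 8 libraries for NFE2L2, whereas replicate b was close to the untreated pair. Without replicate b the difference was -0.43 (adjusted p = 0.029), and with libraries scaled by total counts it was -0.28 (adjusted p = 0.076), so this call depends on 1 library and on the scaling.

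The other 6 differed between Tm + ISRIB and Tm by -0.17 (USF1) to 0.05 (ATF6) in RPFs on the log2 scale, and the intervals of all 7 lay between 0.725- and 1.299-fold. No member passed for mRNA, where 0% of transcripts did by edgeR and by DESeq2. At an unadjusted p under 0.05 were 0 of 5 genes, beside 198 of 10970 transcripts. None passed for efficiency, where 6.11% of transcripts did. At an unadjusted p under 0.05 were 0 of 5, beside 1899 of 10970, and DESeq2 called 0, beside 404. NFE2L2 efficiency was 1.21 and 1.49 in Tm + ISRIB, against 1.58 and 1.70 in Tm (log2 difference -0.27, SE 0.15, adjusted p = 0.36). Comparisons with Tm, and those with untreated cells, share control libraries and are not independent of each other.

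**Figure D4:**
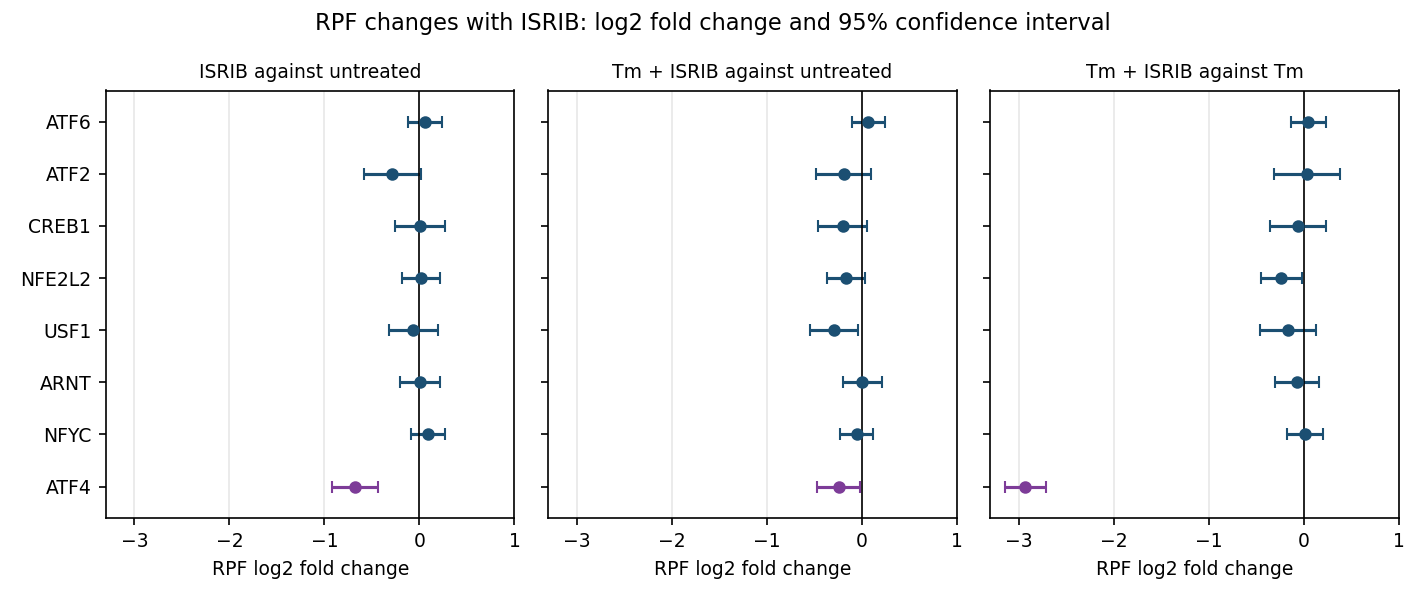
RPF log2 fold changes (points) with 95% confidence intervals (bars) for ISRIB against untreated, Tm + ISRIB against untreated and Tm + ISRIB against Tm, with ATF4 in purple. The 7 genes lie between -0.29 and 0.09 in all 3 panels, and ATF4 lies at -2.93 in the last.

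Whether the Tm effect itself differed with ISRIB was tested as an interaction of Tm and ISRIB. None of 17 tests over the members passed (lowest adjusted p = 0.36, 0 at an unadjusted p under 0.05). Over all transcripts 6.90% passed for RPFs of joined transcripts, 6.49% for RPFs in Ribo-Seq alone, 0% for mRNA and 1.39% for efficiency. The difference of the Tm effects was -0.25 (SE 0.15) for NFE2L2 RPFs and 0.32 (SE 0.22) for ATF2 RPFs.

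Dimer partners and regulators of the factors were taken from a list of 42 genes, of which 8 have a symbol in the tables used and 6 were tested in both assays. For RPFs in Tm, 0 of 6 passed higher and 1 lower, where 6.33% of joined transcripts passed higher and 7.21% lower. This was JUN, the dimer partner of ATF2, at -0.34 (SE 0.10, adjusted p = 0.036), which was also lower in Tm + ISRIB than in Tm (-0.34, SE 0.11, adjusted p = 0.047) and than in untreated cells (-0.68, SE 0.10, adjusted p = 2.3e-04). Each was the 1 of 6 that passed there, where 17.7% and 2.65% of joined transcripts did. JUN efficiency in Tm + ISRIB was lower than in untreated cells by -0.83 (SE 0.14, adjusted p = 0.002) and than in Tm by -0.54 (SE 0.15, adjusted p = 0.054), again 1 of 6 each, beside 8.96% and 6.11% of transcripts. ISRIB without Tm gave JUN values in the same direction, smaller than those of Tm + ISRIB against untreated cells, that did not pass. Against untreated cells these were -0.36 for RPFs (SE 0.10, adjusted p = 0.63) and -0.53 for efficiency (SE 0.14, adjusted p = 0.23). In Tm, RPFs of CUL3, the ubiquitin ligase scaffold that degrades NRF2, were at 0.03 (adjusted p = 0.83). Those of PRKACB, a catalytic subunit of the kinase of CREB1, were at 0.02 (adjusted p = 0.96). EPAS1, a hypoxia-inducible partner of ARNT, was at -0.49 (SE 0.27, adjusted p = 0.28), CREB3L4, an ER-bound relative of ATF6, at -0.03 (adjusted p = 0.96) and NPAS2 at 0.17 (adjusted p = 0.84). The list's median was -0.01, beside -0.01 over all joined transcripts. In Ribo-Seq alone, CRTC2, a coactivator of CREB1, was at -0.02 (adjusted p = 0.96) and ATF3 at 0.17 (adjusted p = 0.75). None of the 6 passed in Tm for mRNA, where 11.0% of transcripts did, or for efficiency, where 15.9% did (mRNA median -0.10, efficiency median 0.07).

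Targets came from a list of 26 genes, of which 5 have a symbol and 4 were tested in both assays. In Tm, 1 of 4 passed higher for RPFs and 1 lower, beside 6.33% and 7.21% of joined transcripts. GCLM, an NRF2 target that encodes the modifier subunit of the enzyme for glutathione synthesis, rose by 0.27 (SE 0.10, adjusted p = 0.083) and was lower by -0.32 in Tm + ISRIB than in Tm (SE 0.10, adjusted p = 0.042). PDIA6, an ER disulfide isomerase, was lower in Tm by -0.28 (SE 0.08, adjusted p = 0.029) and higher in Tm + ISRIB than in Tm by 0.40 (SE 0.08, adjusted p = 0.0015). In Tm + ISRIB against Tm these were the 2 of 4 that passed, where 17.7% of joined transcripts did. EDEM1, an ER-associated degradation factor, was at 0.15 in Tm (SE 0.23, adjusted p = 0.74) and EPHX1, a detoxifying hydrolase, at -0.17 (SE 0.12, adjusted p = 0.4). The median of the 4 was -0.01. PRDX1, followed in Ribo-Seq alone, was at 0.15 in Tm (adjusted p = 0.18) and was lower in Tm + ISRIB than in Tm by -0.24 (SE 0.07, adjusted p = 0.019), where 17.4% of transcripts in Ribo-Seq alone passed. None of the 4 passed for mRNA in Tm, beside 11.0% of transcripts, and GCLM was at -0.004 and PDIA6 at 0.05. For efficiency 1 of 4 passed, beside 15.9%, and this was PDIA6 (-0.33, SE 0.12, adjusted p = 0.091). PDIA6 was also the 1 of 4 whose efficiency passed in Tm + ISRIB against Tm (0.41, SE 0.12, adjusted p = 0.075), beside 6.11%.

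The transcript with a symbol whose RPF pattern over the 8 libraries was most like that of each factor was sought among 1888. These were IMMT for ATF6 (Pearson r = 0.932), ARHGAP29 for ATF2 (0.931), RFTN1 for CREB1 (0.931), STPG1 for NFE2L2 (0.916), RPE for USF1 (0.895), TFB2M for ARNT (0.967) and KIAA1143 for NFYC (0.958). Each r is the highest of 1888 over 8 libraries that share depth and replicates, and is given as a description.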

How the data were processed

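Per the labels and methods, ribosomes were arrested with cycloheximide before lysis. The authors deposited, for each of 16 libraries, raw counts of reads over the coding sequence of UCSC transcripts, with the number of codons counted. The processing notes name CASAVA 1.8, Bowtie 1.0.0, TopHat2 2.0.10 and 2.0.7 and hg19. How reads shared by isoforms were assigned is not given in the sources used here, so a transcript's counts may hold reads of other isoforms.

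From the 21520 transcripts that have a coding length in Ribo-Seq, 19044 were joined to mRNA-Seq by identifier without version and equal counted length. filterByExpr at 10 counts kept 10970 in both assays, and 12242 in Ribo-Seq alone. Changes were fitted in edgeR 4.0.16 (limma 3.58.1, R 4.3.3) with TMM, glmQLFit and glmQLFTest over all 8 libraries of an assay, or all 16 for efficiency (interaction of treatment and assay), and called at an FDR of 0.1 by Benjamini-Hochberg over all transcripts of a comparison. The standard error is the log2 fold change over the square root of F. The scripts were tested on simulated data. Common dispersions correspond to coefficients of variation of 5.62% for RPFs and 6.7% for mRNA. With 2 samples against 2, an exact test of 1 gene cannot go below p = 0.33. DESeq2 1.42.0, other scalings, no count filter, replicate blocks and leaving out each replicate were the alternatives.

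Levels between genes were compared as log2 CPM per 1000 counted codons (0.5 counts added). An exact sign-flip test over the 8 lysates of all 4 treatments compared neighbours in the order of these same values. Gene symbols are those the study gives, read from a shortened copy of its list, for 1893 of the tested joined transcripts. A gene without a symbol here may thus have one in the study. Transcripts matched to the annotation and those searched for nearest patterns come from this part of the list. 5′ UTRs come from GENCODE v29 (GRCh38) by symbol and coding length, and are not coordinates of the authors' files. Tables and figures were made in Python 3.11.15 with numpy 2.4.6, pandas 2.3.3, matplotlib 3.10.9 and scipy 1.17.1. The text names the 7 genes, ATF4, the tested members of both lists and each gene's nearest pattern. Members, lists and rules were chosen with earlier results of these data known. Lysates pair the assays by the methods: deviations of same-lysate libraries correlated at -0.063 to 0.047 across transcripts.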

Additional observations from a re-analysis of the deposited data

How the results depend on the processing

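The number of genes past the FDR stayed at 0 in all 12 sets of quantity and comparison with DESeq2 size factors, the DESeq2 Wald test, no filter beyond 1 count and the replicate block by letter, and with the replicate block by lysate for efficiency, and so changed no call. Same-letter libraries of different treatments correlated at -0.258 to 0.165 in their deviations. This cannot decide whether the letters pair treatments, since libraries of the same lysate, paired by the methods, correlated only at -0.063 to 0.047. The exception was 1 gene (NFE2L2) for RPFs in Tm + ISRIB against Tm with total counts, and a range of 0 to 1 when 1 replicate was left out, with the 1 reached without Tm + ISRIB replicate b. A lone replicate is then assumed to vary like the other groups.

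Signs turned for values near 0. With total counts these were the RPF differences in ISRIB of ARNT (-0.022), NFE2L2 (-0.010) and CREB1 (-0.022), the RPF differences of NFYC (-0.033) and ATF2 (-0.016) between Tm + ISRIB and Tm, ARNT mRNA in Tm (-0.019), and the efficiency of NFE2L2 in Tm + ISRIB (0.014) and of ATF2 between Tm + ISRIB and Tm (-0.033). With no filter they were ARNT (-0.0017) and CREB1 (-0.0013) RPFs in ISRIB, and with the replicate block by lysate ARNT efficiency between Tm + ISRIB and Tm (0.0008). The cause was not tested.

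With 1 replicate left out, RPF log2 differences ran from -0.067 to 0.10 for ATF6 and -0.33 to -0.087 for ATF2 in Tm, where ATF2 efficiency ran from -0.49 to -0.17. In Tm + ISRIB against untreated they ran from -0.11 to 0.0020 for NFYC and -0.017 to 0.15 for ATF6. In ISRIB they ran from -0.026 to 0.031 for ARNT, -0.0091 to 0.032 for NFE2L2, -0.16 to 0.16 for CREB1, -0.21 to 0.049 for USF1 and -0.028 to 0.14 for ATF6. In Tm + ISRIB against Tm they ran from -0.048 to 0.093 for NFYC, -0.16 to 0.0058 for ARNT, -0.10 to 0.15 for ATF2, -0.43 to -0.076 for NFE2L2 and -0.20 to 0.050 for CREB1. For mRNA they ran in Tm from -0.090 to 0.20 for NFYC and -0.066 to 0.11 for ARNT, in Tm + ISRIB against untreated from -0.12 to 0.015 for ARNT, in ISRIB from -0.23 to 0.037 for NFE2L2, and in Tm + ISRIB against Tm from -0.081 to 0.21 for NFYC, -0.16 to 0.018 for ARNT and -0.029 to 0.062 for ATF2. For efficiency they ran in Tm from -0.35 to 0.087 for NFYC and -0.11 to 0.24 for ARNT, in Tm + ISRIB against untreated from -0.0092 to 0.13 for ARNT and -0.19 to 0.11 for NFE2L2, in ISRIB from -0.0057 to 0.22 for NFE2L2, and in Tm + ISRIB against Tm from -0.26 to 0.17 for NFYC, -0.18 to 0.16 for ARNT and -0.16 to 0.17 for ATF2.

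In the untreated lysates alone, the log2 difference over the next gene was 0.43 for ARNT over ATF2 in RPFs, 0.19 for NFYC over NFE2L2 and 0.23 for NFE2L2 over CREB1 in mRNA, and 0.053 for NFE2L2 over CREB1 and 1.16 for ARNT over ATF2 in efficiency. Scaling by total counts moved none of the 14 neighbour differences past its spread. ATF2, with 65 RPF counts in its shallowest library, has the widest RPF interval, and a level of 0.686-fold in Tm still lies within it.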
